A study of Mus musculus with 24 samples.

Results

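Endothelial cells of mouse bone marrow were compared in 2 settings, taken from the marrow and grown in culture, and this account covers 6 of the 24 libraries of the series. The libraries were chosen by title: 3 of bone marrow endothelial cells in vivo (numbered 1 to 3) and 3 of bone marrow endothelial cells in vitro whose titles carry the name Akt1 and no mark of a co-culture (numbered 1 to 3). All come from C57BL/6J animals, without a stated age, sex or treatment, and all were made from polyA RNA. The headers inside the in vivo files add the word Young, which the labels do not explain. The labels do not say what Akt1 in a title stands for, how the cells were isolated or grown, or whether the cultured cells are 1 line or several. Since all cultured titles carry Akt1 and the in vivo titles do not, the setting, that name and the isolation cannot be told apart. Sex-linked transcripts, given below, also differed between part of the cultures and the in vivo libraries. A further 2 kinds of library are used only where stated: a second series of the same cells in culture, labelled as not co-cultured and called alone here, and bone marrow stroma in vivo and in culture. The series concerns the arteriolar niche of hematopoietic stem cells.

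Marrow is drained by sinusoids, wide and leaky vessels whose endothelium takes up waste from the blood, presents adhesion molecules to passing blood cells and lets mature cells out, and it is fed by arterioles, whose tighter endothelium depends on Notch signals and lies near quiescent stem cells. Capillary and sinusoidal endothelium also moves fatty acids into the tissue. Endothelial cells placed in culture lose contact with flow, with neighbouring cells and with the blood, and commonly enter the cell cycle. Akt1 is a kinase through which insulin and growth factors act on survival, growth and the transcription factors of the FoxO family.

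Levels were deposited as FPKM (fragments scaled to transcript length and to the fragments sequenced), so that levels compare between genes, for 23879 gene symbols. Between 12548 and 13235 genes reached 1 FPKM per library and the library totals ran from 1421447 to 1808592 FPKM, so the unit was not scaled to a common total. Read counts were not used here and the depth behind each value is unknown, which leaves the spread between libraries as the measure of error. Whether the 3 libraries of each group stem from separate mice or cultures is not stated. The p-values below therefore reflect no more than the variation among these libraries. That variation may be technical in vivo, and at most in part so in culture, where sex-linked transcripts differed. On log2(FPKM + 1), the cultured libraries correlated across genes with each other at 0.916 to 0.935, the in vivo libraries at 0.988 to 0.991 and libraries of different groups at 0.711 to 0.754, where genes are not independent replicates. The median SD over tested genes was 0.33 on this scale in culture and 0.11 in vivo. Cultured libraries 2 and 3 differed from all others in sex-linked transcripts: Xist stood at 2.35, 1107 and 1249.8 FPKM in culture and at most at 0.16 in vivo, and the Y-linked gene Ddx3y was listed at 0 in cultured libraries 2 and 3. Ddx3y stood at 231 FPKM in cultured library 1 and at 201, 207 and 249 in vivo. By these transcripts the 3 cultures are not of 1 sex and do not all stem from 1 animal. Sex is thus uneven between the groups, and its part in the differences was not tested.

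Markers of most other marrow cell types were higher in the in vivo libraries and move with the rises described here. The 14 erythroid markers summed to 1356 to 1999.8 FPKM in vivo and 5.85 to 63.6 in culture, the 14 mesenchymal matrix markers to 141 to 298 against 12.15 to 30.55, the 15 granulocyte markers in the files to 284 to 403 against 2.50 to 6.58, and the 14 megakaryocyte and platelet markers to 255 to 651 against 35.7 to 60.5. In culture the genes listed at 0 in all 3 libraries numbered 9 of 14 erythroid, 6 of 14 mesenchymal, 13 of 15 granulocyte and 6 of 14 megakaryocyte markers. A gene listed at 0 in all cultures is tested only through its in vivo values and can only be called higher. The smooth muscle and pericyte markers summed to 3446 to 4116 FPKM in vivo and 739 to 2032 in culture, and the monocyte and macrophage markers to 5711 to 7292 against 144 to 339, with most of the in vivo sum from Abcc9 and Kcnj8 in the former and from Vcam1 and Mrc1 in the latter. Osteoblast markers summed to 292 to 378 FPKM in vivo and 28.1 to 31.6 in culture, B cell markers to 42.95 to 68.4 against 5.85 to 29.3, and T and NK cell markers to 43.6 to 60.2 against 1.87 to 11.04. Lepr-positive stroma markers overlapped in their sums, at 2356 to 2665 against 697 to 4152, of which Cxcl12 and Kitl made up most in each library. Of these 12 markers 8 were called higher and none lower, with 2 lower without cultured library 2, and 2 were listed at 0 in all cultures. The pan-hematopoietic markers summed to less in vivo, 249.8 to 282 against 358 to 845. Even so, 12 of the 14 were called higher and 1, Arhgdib, which made up most of both sums, lower. Of the 14, 8 were listed at 0 in all cultures and so could only be called higher. In vivo the general leukocyte marker Ptprc stood at 2.79, 3.85 and 1.18 FPKM and the mesenchymal marker Pdgfrb at 10.9, 14.4 and 16.8, beside 3271, 3031 and 3475 for the endothelial cadherin Cdh5. The part of these transcripts in the differences was not tested. In such bulk libraries, fewer cells of a type and less RNA per cell cannot be told apart.

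Of 13472 genes tested, 7333 differed between endothelium in vivo and in culture (54.4%; limma, Benjamini-Hochberg adjusted p under 0.05), of which 3278 were higher in vivo (24.3% of tested genes) and 4055 lower (30.1%). A difference of at least 2-fold in size was found for 2331 of the genes called higher and 2198 of those called lower. At a log2 difference of 4 or more the numbers were 355 and 135. Among the genes called higher, 497 were listed at 0 in all cultured libraries, and 188 of those called lower were listed at 0 in all in vivo libraries. The median log2 difference over all tested genes was -0.13, and trimmed-mean scaling moved it by 0.16 to 0.04 and the share of calls that were higher from 44.7% to 53.7%. Differences below are given on log2(FPKM + 1), which understates the change of low genes, as in vivo minus culture with the SE, and are to be read against that median. Of the 7333 genes, 4987 were called in the same direction in each of the 6 fits that left out 1 library. Counts of list members called higher or lower are likewise to be read against the 24.3% and 30.1% over all tested genes.

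**Figure D1:**
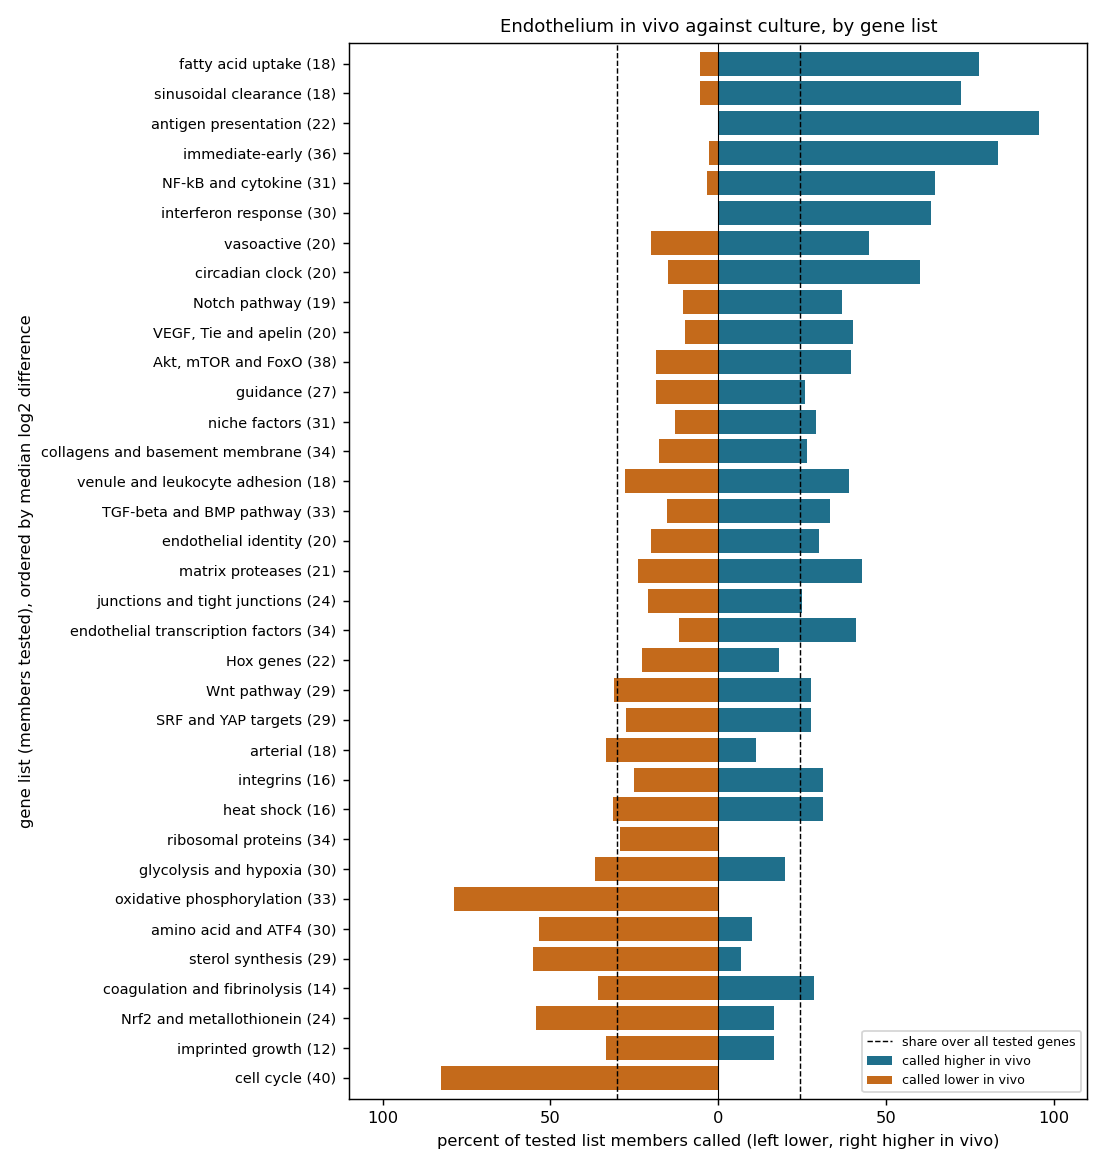
Horizontal bars give, for each of 35 gene lists, the percent of its tested members (number in brackets) called higher in vivo (right, blue) or lower in vivo (left, orange), and dashed lines mark the shares over all tested genes, 24.3% and 30.1%. Fatty acid uptake, sinusoidal clearance, antigen presentation and immediate-early genes lie far to the right, and cell cycle and oxidative phosphorylation genes far to the left.

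Akt1, the gene named in the culture titles, was measured first. Akt1 stood at 1599, 1079.8 and 2337 FPKM in culture and at 433, 433 and 469.9 FPKM in vivo. All 3 cultured libraries lay above all in vivo libraries, and the difference was -1.84 ± 0.29 (adjusted p = 0.00326). The cultures of the second series had 1094, 1091 and 1128 FPKM. The related kinase Akt2 stood at 19.2, 24.5 and 22.4 FPKM in culture and 34.05, 32.2 and 36.7 in vivo, and rose by 0.62 ± 0.15 (adjusted p = 0.0145). Its adjusted p was 0.052 to 0.0659 without any 1 in vivo library, and 0.058 in a fit that paired libraries by replicate number. Akt1 was higher than Akt2 in every library, in FPKM. Of 38 genes of the Akt, mTOR and FoxO pathway 15 rose, 7 fell and 16 were not called, with a median of 0.56 (0.27 without cultured library 1). The receptors of insulin and insulin-like growth factor were among those that rose: Insr stood at 38.5, 50.3 and 47.6 FPKM in culture and at 285, 459 and 492 FPKM in vivo, a difference of 3.12 ± 0.24 (adjusted p = 0.000272), and Igf1r changed by 2.49 ± 0.21 from 13.2, 7.56 and 9.72 to 58.7, 61.5 and 61.2 FPKM. FoxO target genes went both ways. Cited2 (3.20 ± 0.29) and Txnip, a brake on glucose uptake and thioredoxin (2.51 ± 0.25), rose, while Sesn3 was called lower (adjusted p = 0.00394). Pik3r3, a regulatory subunit of PI3-kinase, fell from 719, 635 and 889 to 85.2, 82.98 and 84.6 FPKM (-3.12 ± 0.15). Foxo1 and Foxo3 themselves were not called (adjusted p = 0.721 and 0.521, at -0.16 ± 0.35 and 0.13 ± 0.17), though Foxo1 had an adjusted p of 0.0127 without cultured library 2, where it was lower in vivo.

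General endothelial genes were present in both settings, as the labels have it. Pecam1, an adhesion molecule of the junction, stood at 4389.5, 3036 and 2382 FPKM in culture and 2297, 2177 and 2415 in vivo, and the difference of -0.46 ± 0.32 was not called (adjusted p = 0.258). Cdh5, the cadherin that joins endothelial cells, and the receptor Tie1 were not called either (adjusted p = 0.33 and 0.991). Tie1 was close to level over all 6 libraries, at 1458, 1502 and 1463 in culture and 1414, 1454 and 1549.6 in vivo. Of 20 identity genes 6 rose, 4 fell and 10 were not called, against 24.3% higher and 30.1% lower over all tested genes. The median of 0.33 was 0.54 without cultured library 2, 0.05 without cultured library 3 and 0.51 with trimmed-mean scaling. The falls numbered 2 without any 1 in vivo library or with trimmed-mean scaling or in a fit of 12 libraries. Cd34 and Vwf were lost without any 1 in vivo library.

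The largest contrast among identity genes lay in Cldn5, the main claudin of endothelial tight junctions. Cldn5 stood at 3.62, 101 and 71.6 FPKM in culture and at 2697, 2886 and 2344 FPKM in vivo. Every in vivo library lay above every cultured one, and cultured library 1 stood far below the other two, so that the difference of 6.34 ± 1.15 has a wide error (adjusted p = 0.00521). Robo4, a guidance receptor that steadies the vessel wall, rose from 13.98, 87.6 and 5.17 to 1417, 1364 and 1485 FPKM (6.14 ± 0.92, adjusted p = 0.0026). Endoglin (Eng), a co-receptor for TGF-beta and BMP9, rose by 2.78 ± 0.46. Icam2, a ligand for leukocyte integrins, went the other way, from 2579, 2015 and 1579 to 722, 654 and 753 FPKM (-1.51 ± 0.23, adjusted p = 0.00281). Among 24 junction genes 6 rose, 5 fell and 13 were not called, against 24.3% higher and 30.1% lower over all tested genes. The median was 0.20, with 0.04 without cultured library 3, 0.08 without in vivo library 1 and 0.37 with trimmed-mean scaling, and it changed sign to -0.29 without both cultured libraries 2 and 3 (8 rises, 10 falls). The falls numbered 3 without any 1 in vivo library or with trimmed-mean scaling. Plvap, the protein of the diaphragms that cover pores of leaky endothelium, rose from 54.5, 805 and 176 to 4281, 4776 and 5732 FPKM (4.62 ± 0.92). Occludin (Ocln), a strand protein of tight junctions, stood at 25.9, 51.5 and 37.1 FPKM in culture and was listed at 0 in all in vivo libraries (adjusted p = 8.82e-05).

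Genes for the uptake of fatty acids were among the largest rises. Of 18 tested genes of this list 14 were higher in vivo and 1 lower, with a median difference of 4.23 against -0.13 over all genes. The falls numbered 3 without cultured library 3. Cd36 stood at 0, 0.75 and 0.58 FPKM in culture and at 3588, 2830.3 and 2999 FPKM in vivo. Cd36 is the membrane transporter that carries fatty acids through endothelium, and its difference was 11.12 ± 0.24 (adjusted p = 5.91e-06). Fabp4 stood at 78.2, 2052 and 7.47 FPKM in culture and at 29122, 25970.4 and 31698 FPKM in vivo. Fabp4, which binds fatty acids inside the cell, was the most abundant transcript of endothelium in vivo, and cultured library 2 stood far above the other cultures. The difference of 8.02 ± 1.88 had an adjusted p of 0.0132, and of 0.0527 without in vivo library 3. Gpihbp1 stood at 0, 47.4 and 3.49 FPKM in culture and at 2682, 2245 and 2449 FPKM in vivo. Gpihbp1 anchors lipoprotein lipase on the capillary surface, and it rose by 8.67 ± 1.33 (adjusted p = 0.00277). The lipase Lpl itself rose from 0, 3.44 and 0.58 to 398, 298 and 378 FPKM (7.54 ± 0.54). Lpl is also among the Lepr-positive stroma markers, and the part of such cells was not tested. Lipg, the endothelial lipase, was listed at 0 in all cultured libraries and stood at 894, 850.3 and 1729 FPKM in vivo (adjusted p = 1.28e-05). Angptl4, an inhibitor of these lipases, rose from 0, 7.04 and 0 to 1973, 1789.5 and 2660.0 FPKM (10.04 ± 0.83). The single fall was Slc27a4, a fatty acid transport protein, by 0.76 ± 0.13 on the log2 scale (adjusted p = 0.0042). Fabp5 was not called, at 71.4, 357 and 21.7 FPKM in culture and 100.5, 76.9 and 71.3 in vivo.

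Sinusoidal genes for clearance of waste from blood showed the same direction. Of 22 genes 18 were tested, and 13 were higher in vivo, 1 lower and 4 not called (median 3.17). The falls numbered 2 without cultured library 1 or 3 or in a fit of 12 libraries or with a weight per group. Stab2 stood at 0.25, 1.66 and 0.35 FPKM in culture and at 1973, 1865 and 2213 FPKM in vivo. Stab2 is the scavenger receptor that marks sinusoids and removes hyaluronan, and its difference was 10.25 ± 0.30 (adjusted p = 1.31e-05). The related receptor Stab1 rose from 155, 822 and 137 to 1386, 1401 and 1652 FPKM (2.50 ± 0.69), with an adjusted p of 0.0234 that became 0.0533 to 0.0819 without cultured library 1 or 3 or without any 1 in vivo library. Mrc1, the mannose receptor, rose from 0, 1.12 and 0.27 to 1142, 1251 and 1465 FPKM (9.85 ± 0.29, adjusted p = 1.31e-05). Fcgr2b, which removes immune complexes, and Dnase1l3, which digests circulating DNA, were listed at 0 in all cultured libraries. In vivo Fcgr2b stood at 566, 754 and 814 FPKM and Dnase1l3 at 838, 949 and 1074 (adjusted p = 3.73e-06 and 1.73e-06). Mrc1 and Fcgr2b are also made by macrophages. Of 7 monocyte and macrophage markers tested, which include Mrc1, 5 were called higher in vivo and none lower. Cd14 and Ly6c2 were among the 5 (adjusted p = 0.000155 and 0.00109). Lyz2, of the same list, stood at 12.1, 10.6 and 15.9 FPKM in vivo, beside the low Ptprc given above. Of the 16 markers in the files, 8 were listed at 0 in all cultures and 5 at 0 in all in vivo libraries. The part of such cells was not tested. Gpr182, a receptor of sinusoidal endothelium, was far higher in cultured library 2 than in the other cultures, at 1.80, 168 and 3.92 FPKM, against 1122, 1014 and 1456 in vivo (6.48 ± 1.51). Its adjusted p was 0.013, and 0.0539 without in vivo library 3. The gene called lower was the lysosomal protease Ctsh, at 584, 1967 and 690.0 FPKM in culture and 66.3, 77.6 and 89.9 in vivo (-3.56 ± 0.47).

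**Figure D2:**
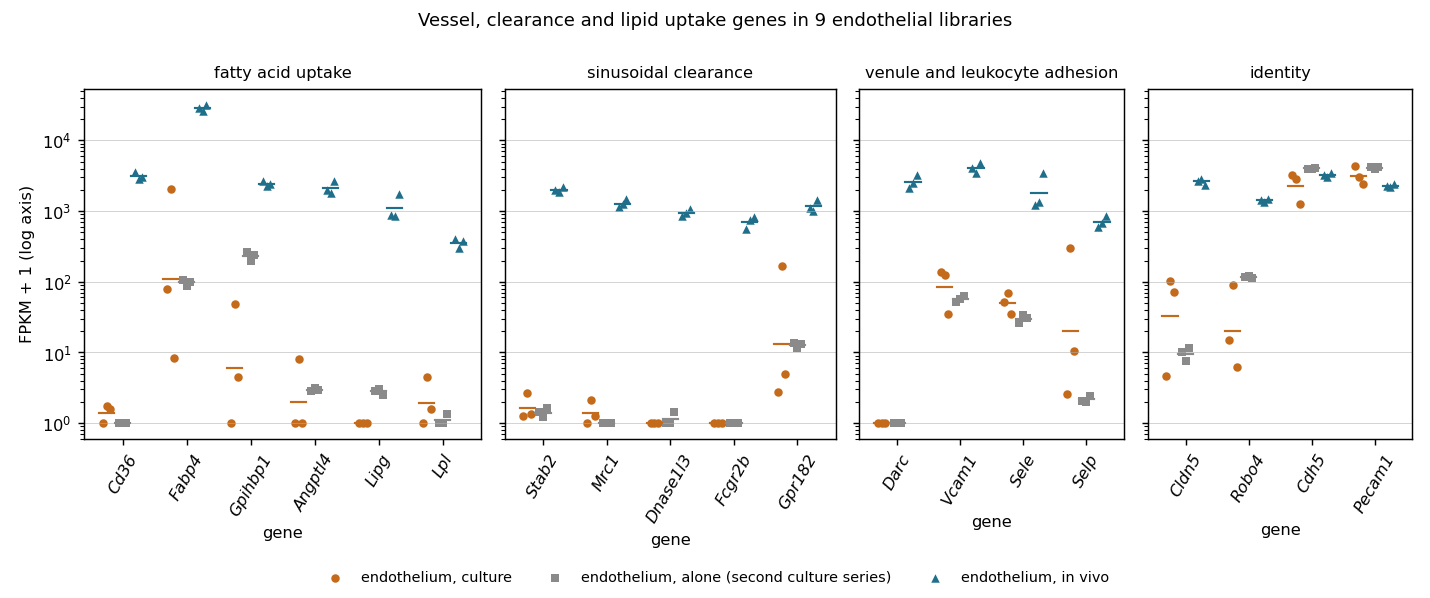
FPKM + 1 on a log axis for 19 genes in the 3 cultured libraries (circles), the 3 libraries of the second culture series (squares) and the 3 in vivo libraries (triangles), with short lines at the mean of the log values. The lipid, clearance and adhesion genes lie above both sets of cultures in all 3 in vivo libraries, while the Cdh5 and Pecam1 levels of culture and in vivo libraries overlap.

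Adhesion molecules that slow and hold leukocytes on venules and sinusoids followed, though less evenly. Darc was listed at 0 in all cultured libraries and stood at 2123, 2518 and 3194 FPKM in vivo, with an adjusted p of 1.73e-06. Darc, now called Ackr1, is the chemokine-binding receptor of venules. Vcam1 stood at 138, 126 and 34.1 FPKM in culture and at 4106, 3442 and 4783 FPKM in vivo. Vcam1 holds integrin-bearing stem cells and leukocytes, and rose by 5.58 ± 0.54 (adjusted p = 0.000591). Sele stood at 51.5, 67.6 and 34.3 FPKM in culture and at 1218, 1344 and 3439 FPKM in vivo. E-selectin (Sele) thus rose by 5.15 ± 0.46, with in vivo library 3 standing well above the other two. P-selectin (Selp) was far higher in cultured library 2 than in the other cultures, at 1.60, 296 and 9.63 FPKM against 600.0, 678 and 850.2 in vivo. Its adjusted p was 0.0401, and 0.0734 to 0.118 without cultured library 1 or 3 or without any 1 in vivo library. Icam1 was not called, at 54.9, 224 and 3.13 FPKM in culture and 369, 443 and 814 in vivo (adjusted p = 0.0619, and 0.0168 to 0.0386 without cultured library 2 or 3). Fits of 12 and 24 libraries and a weight per group called Icam1 higher in vivo (adjusted p = 0.0488, 0.00575 and 0.0266). Of 18 genes of this list 7 rose, 5 fell and 6 were not called (median 0.45). The rises numbered 4 without any 1 in vivo library. The falls numbered 2 without in vivo library 1 or 2 and 3 without in vivo library 3 or with trimmed-mean scaling or in a fit of 12 libraries. Alcam, an adhesion molecule of activated leukocytes and endothelium, was the largest fall, from 21.1, 115 and 21.1 to 0.69, 0.88 and 1.22 FPKM (-4.32 ± 0.67).

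Genes of cytokine signals and antigen presentation were higher in vivo. Of 31 tested NF-kB and cytokine genes 20 rose and 1 fell (median 2.12), of 30 interferon response genes 19 rose and none fell (median 1.32), and of 22 antigen presentation genes 21 rose and none fell (median 2.83). Without cultured library 3 the falls numbered 4 for NF-kB and cytokine genes and 1 for interferon genes, and a filter at 5 FPKM left no fall among the former. H2-K1 stood at 162, 100.1 and 89.95 FPKM in culture and at 3807, 3455 and 3619.7 FPKM in vivo. H2-K1 is a class I molecule that shows peptides to T cells and shares reads with near-identical class I genes, and it rose by 4.99 ± 0.24 (adjusted p = 7.66e-05). Its partner B2m rose from 3329, 2774 and 2385 to 13769, 13229 and 14348 FPKM (2.30 ± 0.43). The adjusted p of B2m was 0.00561, and 0.0672 in a fit that paired libraries by replicate number. The immunoproteasome subunit Psmb9 rose from 26.7, 7.56 and 27.1 to 277, 266 and 241 FPKM (3.80 ± 0.47). Nlrc5, the activator of class I genes, rose from 0.66, 0.48 and 0.46 to 53.8, 43.4 and 45.6 FPKM (4.98 ± 0.18). The class II genes Cd74 and H2-Aa were listed at 0 in all cultures, and in vivo Cd74 stood at 56.9, 39.6 and 42.2 FPKM and H2-Aa at 46.2, 31.9 and 34.8 (adjusted p = 2.55e-05 and 3.01e-05). Class II genes are also made by B cells, whose marker Cd79a stood at 3.78, 1.75 and 1.34 FPKM in vivo and Cd79b at 3.21, 3.26 and 1.74, and the part of such cells was not tested. The second culture series held Cd74 at 88.8, 25.1 and 87.3 FPKM, around the in vivo level, unlike the first cultures. Among interferon targets Rsad2 stood at 10.8, 8.29 and 6.90 FPKM in culture and at 173, 159 and 154 FPKM in vivo (4.09 ± 0.18, adjusted p = 5.12e-05). Gbp2, a GTPase induced by interferon gamma, rose by 3.31 ± 0.32 and Parp14 by 3.52 ± 0.18. Il6st, the shared receptor of the interleukin-6 family, rose from 151, 168 and 200.3 to 3369, 3789.6 and 4505 FPKM (4.48 ± 0.19). The chemokine Cxcl9 was listed at 0 in culture and stood at 180.0, 156 and 203 FPKM in vivo, and Cxcl10 rose by 4.11 ± 0.43 with in vivo library 3 highest, at 115, 114 and 310.1 FPKM. Ccl5 fell from 12.8, 3.57 and 4.94 FPKM to 0 in all in vivo libraries. Lrg1, an acute-phase glycoprotein that acts on vessel growth, rose by 10.28 ± 0.73, from 0, 7.02 and 2.21 to 2954, 3425 and 4924 FPKM.

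Immediate-early genes, which cells switch on within minutes of a stimulus without new protein, were higher in vivo as a list. All 36 genes were tested: 30 rose, 1 fell and 5 were not called, with a median of 2.76. The falls numbered 2 without cultured library 3 or with quantile scaling or in a fit of 12 libraries or with a weight per group. Fos stood at 6.41, 6.29 and 5.97 FPKM in culture and at 5148, 6929 and 10249 FPKM in vivo. Fos, the partner of Jun in the AP-1 factor, was level between the cultured libraries and differed by 9.95 ± 0.25 (adjusted p = 8.47e-06). Fosb stood at 2.52, 1.03 and 1.52 FPKM in culture and at 1050.2, 1257 and 1721 FPKM in vivo, a difference of 8.97 ± 0.27. Egr1 stood at 14.7, 14.2 and 7.68 FPKM in culture and at 2365, 3166 and 3931 FPKM in vivo. Egr1, a zinc finger factor driven by serum and growth signals, differed by 7.92 ± 0.30 (adjusted p = 2.83e-05). Jun and Junb rose by 5.36 ± 0.29 and 6.26 ± 0.41. Zfp36 stood at 24.2, 15.3 and 18.9 FPKM in culture and at 3230.1, 3770.4 and 6121 FPKM in vivo. Zfp36, which speeds the decay of cytokine messages, differed by 7.71 ± 0.28, and Socs3, which ends cytokine receptor signals, by 7.11 ± 0.34. The phosphatase Dusp1 rose from 129.7, 227 and 98.8 to 2749, 2821 and 3139 FPKM (4.33 ± 0.31), and the orphan receptor Nr4a1 by 4.97 ± 0.34. Fos, Fosb, Egr1, Zfp36 and Socs3 were highest in in vivo library 3 and lowest in library 1, while Nr4a1 was highest in library 2, at 978, 1307 and 810.5 FPKM. The single fall was Id2, an inhibitor of helix-loop-helix factors, by 1.33 ± 0.25 on the log2 scale (adjusted p = 0.00558). In the second culture series several of these genes stood well above the first cultures: Fos at 1009.7, 1152 and 1060.1, Fosb at 392, 473 and 383 and Egr1 at 818, 904 and 846 FPKM. Over the list, the mean of that series lay between the culture mean and the in vivo mean for 29 of the 36 genes.

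Promoters of the immediate-early genes were read in the RefSeq table of promoter windows (build GRCm38.p6), where 30 of the 36 genes matched. Within the 250 bases before the start, on both strands, a CArG box (the site of serum response factor) was found in 2 of the 30 genes, 6.67%, against 1.62% of 27025 genes. The full cAMP response element (TGACGT followed by CA) was found in 4, 13.3% against 1.77%, and its core TGACGT, which the full element contains, in 9, 30.0% against 7.29%. Such matches describe letters and are not shown to be sites, and nothing follows from a window without one. The promoters of Fos and Zfp36 are shown because these genes had some of the largest rises and each window holds one of these motifs, given in capitals (chr12:85473640-85473889, plus strand, and chr7:28379229-28379478, minus strand, both read 5′ to 3′ toward the start).
Fos: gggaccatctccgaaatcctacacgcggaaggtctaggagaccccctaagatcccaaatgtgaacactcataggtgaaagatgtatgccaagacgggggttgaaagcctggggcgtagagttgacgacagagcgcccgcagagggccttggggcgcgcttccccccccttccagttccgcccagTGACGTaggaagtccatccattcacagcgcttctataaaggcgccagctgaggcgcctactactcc
Zfp36: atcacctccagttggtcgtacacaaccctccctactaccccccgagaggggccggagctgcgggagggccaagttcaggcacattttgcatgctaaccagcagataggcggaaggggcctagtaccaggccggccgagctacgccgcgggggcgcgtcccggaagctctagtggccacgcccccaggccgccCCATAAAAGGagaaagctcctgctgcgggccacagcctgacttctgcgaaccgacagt
In Fos the capitals mark the core, between 66 and 61 bases before the start, and in Zfp36 a CArG box between 58 and 49 bases before the start.

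Cell cycle genes were the list with the most falls. Of 40 genes 33 fell, none rose and 7 were not called (median -2.58). Cdk1 stood at 317, 236 and 283 FPKM in culture and at 18.02, 18.8 and 13.8 FPKM in vivo. Cdk1, the kinase that starts mitosis, was far lower in all in vivo libraries, by a difference of -3.97 ± 0.17 (adjusted p = 5.05e-05). Top2a stood at 729, 309 and 290.0 FPKM in culture and at 28.4, 26.6 and 19.2 FPKM in vivo. Top2a, the topoisomerase that untangles chromosomes, differed by -3.99 ± 0.38. The mitotic checkpoint kinase Bub1 (-4.15 ± 0.33), cyclin B1 (Ccnb1, -3.86 ± 0.31) and the proliferation marker Mki67 (-3.45 ± 0.34) also fell. Replication genes that fell included the helicase subunit Mcm2 (-1.40 ± 0.27) and the sliding clamp Pcna (-0.87 ± 0.15). Cyclin D2 (Ccnd2) fell by 3.05 ± 0.48 on the log2 scale. Cyclin D1 (Ccnd1) was not called, at 609, 1329.8 and 143 FPKM in culture (adjusted p = 0.192). Its adjusted p was 0.00433 without cultured library 3 and 0.0166 in a fit of 24 libraries. Cultured library 3 was the lowest of the 3 cultures for 32 of the 40 genes and library 1 the highest for 30. The cell cycle inhibitors, of which Cdkn1b and Cdkn2b are counted among the 40 genes, differed among themselves. Cdkn2a stood at 159, 353 and 345 FPKM in culture and at 0, 2.09 and 2.32 FPKM in vivo, a difference of -6.96 ± 0.56 for this locus of the inhibitors p16 and ARF. Cdkn2b fell by 2.98 ± 0.42, and Cdkn1a and Cdkn1b were not called (adjusted p = 0.501 and 0.196, the latter 0.00511 without cultured library 3). Cdkn1c stood at 7.29, 8.11 and 286 FPKM in culture and 285, 312 and 289.8 in vivo and was not called (adjusted p = 0.0773), although it was far higher in vivo than in cultured libraries 1 and 2 (adjusted p = 5.58e-05 without cultured library 3). Fits of 12 and 24 libraries and a weight per group called Cdkn1c higher in vivo (adjusted p = 0.0217, 0.00145 and 0.0227). In the second culture series Cdk1 was at 63.5, 73.00 and 78.9 FPKM, and over the list its mean lay between the other 2 means for 35 of 40 genes.

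Of the 40 cell cycle genes 32 matched a promoter in the RefSeq table. A CCAAT box (CCAAT, the site of the factor NF-Y) was present within 250 bases before the start in 21 of them, 65.6% against 37.5% of all genes, and the cell cycle homology element TTTGAA in 7, 21.9% against 18.3%. The CCAAT share of the immediate-early genes was 36.7%. The promoters of Cdk1 (chr10:69352913-69353162, minus strand) and Top2a (chr11:99024190-99024439, minus strand) are shown because both genes are described above and hold both motifs. Capitals mark CCAAT or TTTGAA on either strand (GRCm38.p6).
Cdk1: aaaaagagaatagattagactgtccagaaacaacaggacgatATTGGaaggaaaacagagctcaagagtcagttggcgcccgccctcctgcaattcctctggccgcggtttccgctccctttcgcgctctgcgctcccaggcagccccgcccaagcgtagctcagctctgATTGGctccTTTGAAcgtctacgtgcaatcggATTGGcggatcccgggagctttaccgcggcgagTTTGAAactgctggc
Top2a: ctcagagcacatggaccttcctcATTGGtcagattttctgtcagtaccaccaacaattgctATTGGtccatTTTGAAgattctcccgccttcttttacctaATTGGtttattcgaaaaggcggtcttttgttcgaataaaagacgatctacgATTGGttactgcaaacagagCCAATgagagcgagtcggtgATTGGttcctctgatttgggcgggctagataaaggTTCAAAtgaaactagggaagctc
The Cdk1 window holds 3 CCAAT boxes and 2 TTTGAA elements, and the Top2a window 6 and 2.

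**Figure D3:**
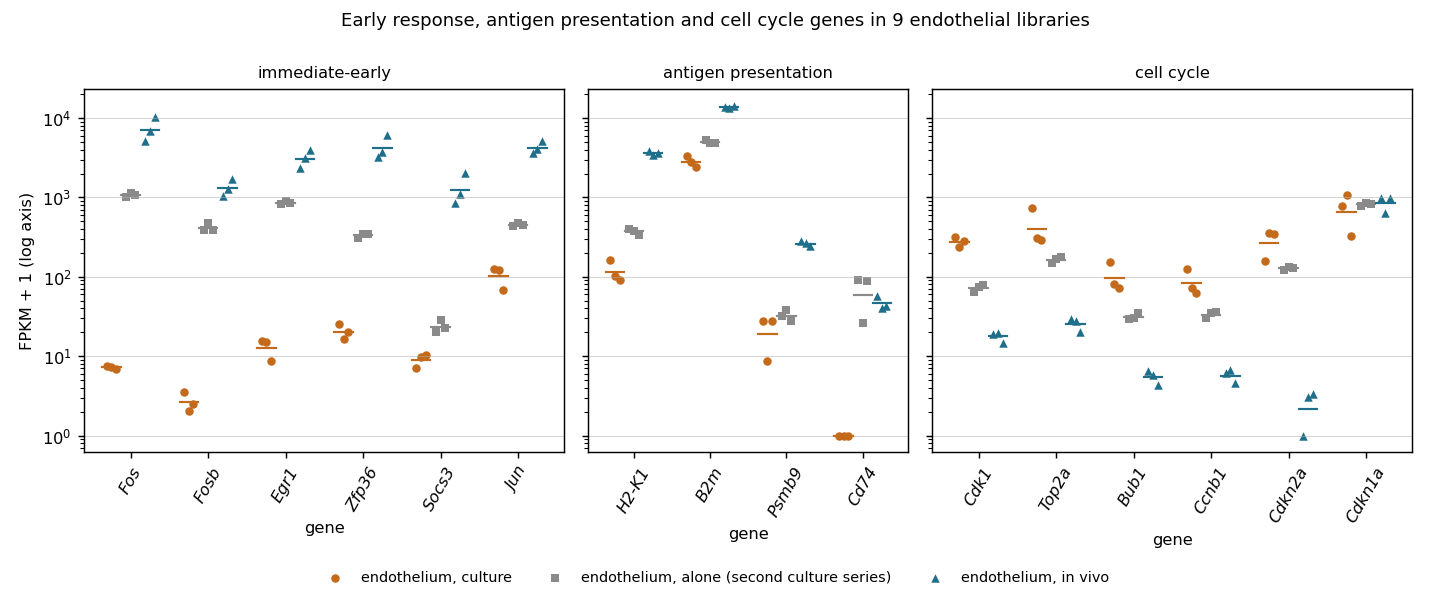
FPKM + 1 on a log axis for 16 genes in the cultured (circles), alone (squares) and in vivo libraries (triangles), with short lines at the mean of the log values. For the immediate-early genes the squares stand between circles and triangles, for Cdk1, Top2a, Bub1 and Ccnb1 likewise in the opposite order, and the Cdkn1a libraries overlap.

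Over all tested genes 30.1% were called lower and 24.3% higher in vivo, and the lists of metabolic and ribosomal genes are given beside these shares. Of 33 subunits of oxidative phosphorylation 26 fell and none rose (median -0.82, with 21 to 28 falls when 1 library was left out). Cox5a stood at 769.8, 576 and 684 FPKM in culture and at 209, 229 and 219 FPKM in vivo, so that this subunit of cytochrome oxidase differed by -1.61 ± 0.14 (adjusted p = 0.000444). Atp5b, the catalytic subunit of ATP synthase, fell from 2944, 2408 and 2851 to 1101, 1083 and 1247 FPKM (-1.25 ± 0.21). The ribosomal protein genes, whose reads can be shared with near-identical copies, were less firm. In the full fit 10 of 34 fell and none rose (median -0.58, and -0.34 without cultured library 1). That share of falls is close to the one over all tested genes, and the count moved with single libraries. The falls numbered 2 without cultured library 2 or without any 1 in vivo library, 6 with no filter or with trimmed-mean scaling and 19 without cultured library 3. Cultured library 1 was the highest culture for 31 of the 34 and library 3 the lowest for 30.

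Sterol and fatty acid synthesis genes included 16 falls and 2 rises among 29 tested (median -0.99). The rises numbered 0 without any 1 in vivo library, 1 without cultured library 2 and 4 with trimmed-mean scaling or with quantile scaling. The falls numbered 9 without in vivo library 1. Scd2 stood at 1933, 658 and 1364 FPKM in culture and at 67.4, 83.8 and 62.9 FPKM in vivo. Scd2, a desaturase that makes oleate, differed by -4.07 ± 0.40 (adjusted p = 0.000591). Fatty acid synthase (Fasn, -3.27 ± 0.47) and squalene epoxidase (Sqle, -2.64 ± 0.30) fell. The 2 rises were the sterol exporters Abcg1 and Abca1 (adjusted p = 0.0154 and 0.0204), and both calls were lost with 1 library left out, at 0.0514 to 0.0622 without any 1 in vivo library for Abcg1 and 0.0534 to 0.0751 without cultured library 2 or without any 1 in vivo library for Abca1. Among glycolysis and hypoxia genes 6 rose and 11 fell of 30 (median -0.64), shares near those over all tested genes, and without cultured library 2 there were 8 rises and 9 falls (median -0.27). Pgk1, a glycolytic enzyme, fell from 329.6, 406 and 194 to 30.96, 30.9 and 33.8 FPKM (-3.18 ± 0.27). Egln3, an oxygen sensor, fell by 4.58 ± 0.56 on the log2 scale, while the lactate carrier Slc16a1 rose by 2.57 ± 0.22. Pfkp, a phosphofructokinase, also rose (3.14 ± 0.58).

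Of 30 amino acid and ATF4 genes 16 fell and 3 rose (median -0.99). Atf4 itself, the factor of the amino acid response, was among the rises, from 428, 444 and 456 to 842, 963 and 999 FPKM (1.07 ± 0.13, adjusted p = 0.00136). Among its known targets that fell were the serine enzyme Psat1 (-2.99 ± 0.26) and the mitochondrial folate enzyme Mthfd2 (-3.17 ± 0.20). The glutamine carrier Slc1a5 rose from 18.9, 12.5 and 8.83 to 144, 155 and 168 FPKM (3.50 ± 0.26).

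In the list of Nrf2 and metallothionein genes, which is not confined to Nrf2 targets, 13 of 24 fell and 4 rose. The median was -1.29, and -0.68 without cultured library 2. Nqo1 stood at 1445, 2961 and 666 FPKM in culture and at 20.4, 21.5 and 15.9 FPKM in vivo. Nqo1, a quinone reductase and a common readout of Nrf2, differed by -6.14 ± 0.52 (adjusted p = 0.000396). Txnrd1 and G6pdx, which supply reducing power, fell (-2.22 ± 0.15 and -2.66 ± 0.36). Sepp1 stood at 85.5, 485 and 234 FPKM in culture and at 16602, 18425 and 21304 FPKM in vivo. Sepp1, the plasma carrier of selenium, rose by 6.44 ± 0.63, and the secreted peroxidase Gpx3 by 4.68 ± 0.43. Heme oxygenase Hmox1 was not called, at 556, 2554 and 306 FPKM in culture and 255, 261 and 312 in vivo (adjusted p = 0.145). Its adjusted p was 0.0372 without cultured library 3 and 0.00983 in a fit of 24 libraries.

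Arterial genes separated cultured library 2 from the other cultures. Gja5 stood at 5198, 397 and 4357 FPKM in culture and at 50.5, 44.1 and 43.1 FPKM in vivo. Gja5 is the connexin of arterial endothelium, and its difference was -5.48 ± 0.98 (adjusted p = 0.00486). Bmx stood at 188, 115 and 559 FPKM in culture and at 8.08, 10.9 and 9.72 FPKM in vivo. The arterial kinase Bmx (-4.46 ± 0.56) and Fbln5, an elastic fibre protein (-2.16 ± 0.31), also fell. The connexin Gja4 stood at 2656, 159 and 4315 FPKM in culture and 87.05, 113 and 99.6 in vivo, close to the latter in cultured library 2. Its adjusted p was 0.0453, with 0.0986 to 0.124 without cultured library 1 or 3 or without any 1 in vivo library, and 0.0501 to 0.0557 with another pseudocount, with no filter or with trimmed-mean or quantile scaling. Of 18 arterial genes 6 fell, 2 rose and 10 were not called, against 30.1% lower and 24.3% higher over all tested genes. The share of falls was thus near that over all tested genes. The median was -0.35, with -1.74 without cultured library 2 and -0.21 without in vivo library 3. The rises numbered 0 without in vivo library 1 and 1 without cultured library 2 or without in vivo library 2 or 3. The falls numbered 12 without cultured library 2. Cultured library 2 was the lowest of the 3 cultures for 15 of the 18. Hey1, a Notch target of arteries, shows the pattern, at 338, 11.6 and 309 FPKM in culture and 129, 107 and 59.03 in vivo (adjusted p = 0.896, and 0.0111 without cultured library 2). Hey2 stood at 40.8, 0 and 61.3 FPKM in culture and 2.66, 2.86 and 2.15 in vivo, and the ephrin Efnb2 at 1293, 127 and 549.6 and 256, 260.0 and 202. Neither was called over all libraries (adjusted p = 0.32 and 0.367), and both were lower in vivo without cultured library 2 (adjusted p = 0.000537 and 0.0146). The list's median changed sign without cultured library 1. Cxcl12, the chemokine that holds stem cells in the marrow, also followed it, at 2359.8, 243 and 3024 FPKM in culture and 1537, 1455 and 1595 in vivo. Its difference of 0.35 ± 0.95 was not called (adjusted p = 0.775) and turned to -0.81 without cultured library 2 (adjusted p = 0.0441).

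**Figure D4:**
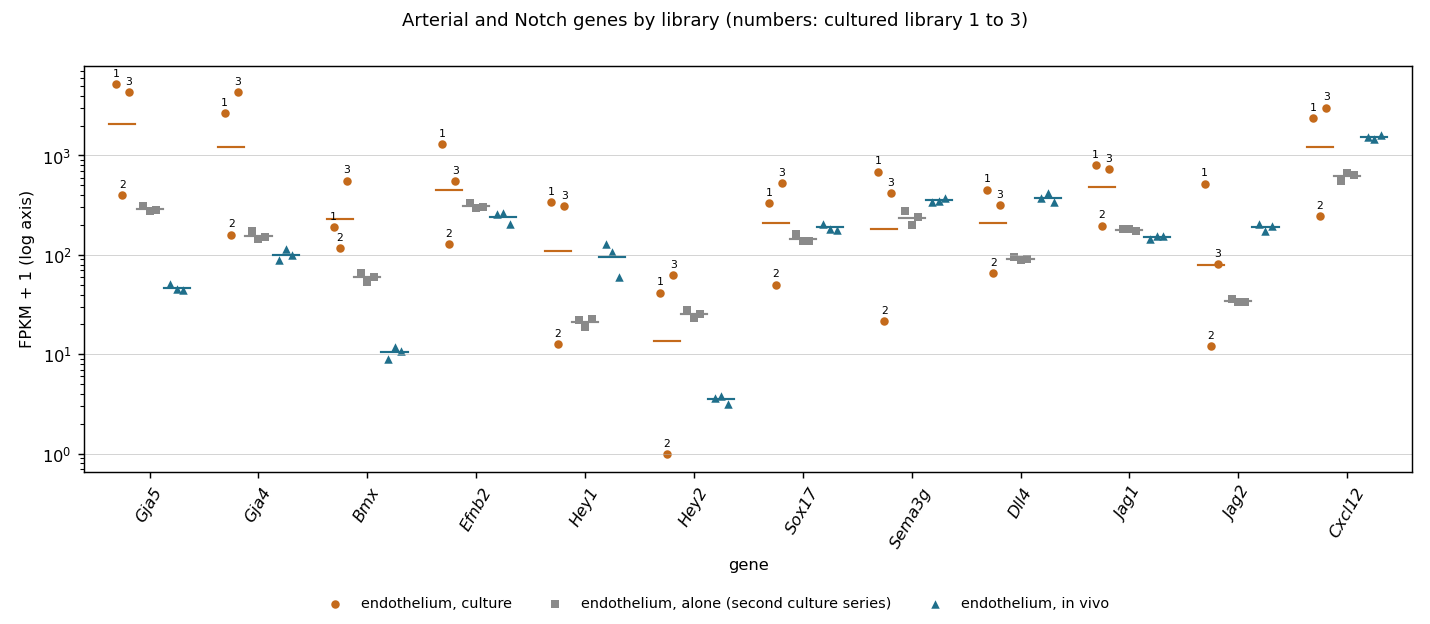
FPKM + 1 on a log axis for 12 arterial and Notch genes in cultured (circles, numbered by library), alone (squares) and in vivo libraries (triangles), with short lines at the mean of the log values. Cultured library 2 is the lowest culture for each gene shown, and for Gja5, Gja4 and Bmx all cultures of the first series lie above all in vivo libraries.

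Notch pathway genes included 7 rises and 2 falls among 19. The median was 0.83, with 0.33 without cultured library 2 and 0.12 without both cultured libraries 2 and 3. The falls numbered 0 without in vivo library 1 or 2, 1 without cultured library 1 or without in vivo library 3 or with trimmed-mean scaling or with quantile scaling and 4 without cultured library 2. Mfng, a sugar transferase that tunes Notch to its Delta ligands, rose from 1.02, 5.05 and 1.49 to 331, 357 and 374 FPKM (6.83 ± 0.41, adjusted p = 0.000139). The receptor Notch1 rose by 1.09 ± 0.15, a call not kept in a fit of 12 libraries (adjusted p = 0.0711), and Notch2 by 1.69 ± 0.22. The ligand Jag1 fell by 1.67 ± 0.54 on the log2 scale, with 801, 196 and 723 FPKM in culture and 145, 154 and 156 in vivo, and its adjusted p of 0.0399 became 0.0929 to 0.112 without cultured library 1 or 3 or without any 1 in vivo library. Dll4 was not called, at 453, 64.9 and 317 FPKM in culture and 375, 418 and 337 in vivo. In the VEGF, Tie and apelin list 8 rose and 2 fell of 20 (median 0.80). The falls numbered 1 without cultured library 1 or without any 1 in vivo library or in a fit of 12 libraries. Flt4, the receptor of VEGF-C, rose from 61.8, 71.8 and 12.9 to 1136, 1204 and 1391 FPKM (4.96 ± 0.63). The apelin receptor Aplnr rose by 6.91 ± 1.35, and the angiopoietin receptor Tek by 1.13 ± 0.16. Kdr, the main VEGF receptor, was higher in vivo by 2.40 ± 0.68 at an adjusted p of 0.0252, which became 0.076 to 0.0819 without any 1 in vivo library. Calcrl, the receptor of adrenomedullin, fell from 1387, 3180.0 and 4564 to 371, 428 and 573 FPKM (-2.59 ± 0.46).

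Among 34 endothelial transcription factors 14 rose and 4 fell. The median of 0.12 ran from 0.06 without in vivo library 3 to 0.31 without cultured library 3. The falls numbered 7 without cultured library 1. Maf stood at 0, 12.4 and 1.65 FPKM in culture and at 289, 287 and 293 FPKM in vivo. Maf, a factor of sinusoidal endothelium, differed by 6.47 ± 0.89. Tcf15, a factor tied to fatty acid uptake in heart endothelium together with Meox2, rose by 6.05 ± 0.75. Gata6 (-3.44 ± 0.42) and Meis2 (-2.84 ± 0.29) fell. The pan-endothelial factors Erg and Fli1 were not called (adjusted p = 0.577 and 0.179), and Erg had an adjusted p of 0.0294 without cultured library 3, lower in vivo. Nr2f2, the factor of veins, and Sox17, a factor of arteries, were not called either (adjusted p = 0.853 and 0.908), though Sox17 had an adjusted p of 0.0115 without cultured library 2, lower in vivo. Hox genes showed 4 rises and 5 falls among 22 tested, and all 5 falls were of the Hoxd cluster, such as Hoxd3 (-4.39 ± 0.30). The rises included Hoxb4 (1.42 ± 0.25, with an adjusted p of 0.00455 that was 0.148 in a fit of 12 libraries). The rises numbered 1 without in vivo library 2 and 2 without in vivo library 1 or 3 or in a fit of 12 libraries. The list's median of -0.11 ran from -0.25 without cultured library 2 to -0.07 without cultured library 3, and changed sign with trimmed-mean scaling.

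Coagulation genes changed in both directions. Tfpi stood at 336, 482 and 338 FPKM in culture and at 5618, 6825 and 7705 FPKM in vivo. Tfpi, the inhibitor of the tissue factor pathway, differed by 4.13 ± 0.25 (adjusted p = 0.000142), and thrombomodulin (Thbd) rose by 1.81 ± 0.27. Procr stood at 849, 5494 and 544 FPKM in culture and at 87.2, 102 and 116 FPKM in vivo. Procr, the protein C receptor and a surface marker of stem cells, fell by 3.74 ± 0.84 on the log2 scale. Plat, the tissue plasminogen activator, fell as well (-1.86 ± 0.16). In all 4 rose and 5 fell of 14, shares near the 24.3% and 30.1% over all tested genes. The rises numbered 2 without cultured library 3 or without any 1 in vivo library. The falls numbered 3 without any 1 in vivo library and 9 without cultured library 3. Among vasoactive genes 9 rose and 4 fell of 20 (median 0.93, and 0.18 with a filter at 5 FPKM). Endothelin-1 (Edn1) fell from 167, 224 and 579 to 43.9, 43.9 and 43.1 FPKM (-2.65 ± 0.45), and Ptgs2, the inducible cyclooxygenase, from 91.03, 53.95 and 153 to 0, 0.79 and 0.64 FPKM (-6.01 ± 0.43). The adenosine receptor Adora2a rose by 4.11 ± 0.43.

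Matrix genes changed in both directions. Of 34 collagen and basement membrane genes 9 rose and 6 fell, against 24.3% and 30.1% over all tested genes. The median was 0.51, with 0.85 without cultured library 2 and 0.06 without cultured library 3. Col8a1 stood at 684, 1045 and 1747 FPKM in culture and at 38.6, 35.3 and 23.1 FPKM in vivo. Col8a1, a short-chain collagen of remodelling vessels, fell (-5.05 ± 0.37), as did Col18a1, the source of endostatin (-3.83 ± 0.45), and fibronectin (Fn1, -3.32 ± 0.37). Col15a1, a basement membrane collagen, rose from 1.41, 0 and 0 to 186, 169 and 156 FPKM (6.99 ± 0.38), and Sparcl1, an anti-adhesive matrix protein, from 0.45, 1.39 and 7.45 to 1370.1, 1018 and 778 FPKM (8.38 ± 0.65). The fibrillar collagen Col1a2, a mesenchymal marker, was higher in vivo at 56.4, 41.1 and 112 FPKM against 1.38, 0.64 and 0.72. Of 21 matrix proteases and inhibitors 9 rose and 5 fell. The falls numbered 2 without any 1 in vivo library. Timp4 was listed at 0 in culture and stood at 673, 341 and 433 FPKM in vivo, Timp3 rose by 2.13 ± 0.18, and Timp1 (-3.65 ± 0.44) and Timp2 (-2.34 ± 0.17) fell. The collagen receptor subunit Itga1 rose by 3.80 ± 0.44, and Itgb3, a subunit of the vitronectin receptor of growing vessels, fell by 3.14 ± 0.56. Targets of SRF and YAP included 8 rises, such as Myl9 (4.10 ± 0.21), and 8 falls of 29, such as vimentin (Vim, -2.79 ± 0.39). Both shares were near those over all tested genes. Ankrd1 stood at 17.3, 66.9 and 10.2 FPKM in culture and was listed at 0 in vivo.

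Factors known from the stem cell niche included 9 rises and 4 falls among 31 tested, against 24.3% and 30.1% over all tested genes. The median was 0.51, with 0.24 without cultured library 1, 1.07 without cultured library 2 and 0.23 without cultured library 3. The falls numbered 7 without cultured library 2. Igfbp2, a secreted binder of insulin-like growth factors, was listed at 0 in all cultures and stood at 106, 108 and 146 FPKM in vivo (adjusted p = 1.09e-05), as was the growth factor Hgf, at 26.9, 28.8 and 36.7. Wnt5a stood at 243, 41.97 and 85.1 FPKM in culture and was listed at 0 in all in vivo libraries, with an adjusted p of 0.000508 for this non-canonical Wnt ligand. Desert hedgehog (Dhh) fell from 186, 139.8 and 165 to 9.22, 14.1 and 15.3 FPKM (-3.59 ± 0.22). Kit ligand (Kitl), which stem cells need, was not called, at 611, 393 and 1034 FPKM in culture and 362, 304 and 270.0 in vivo (adjusted p = 0.0516, and 0.0123 without cultured library 2). Fits of 12 and 24 libraries and a weight per group called it lower in vivo (adjusted p = 0.017, 0.000757 and 0.0361). Follistatin (Fst), an antagonist of activin, fell from 192, 612 and 261 to 1.46, 3.15 and 2.58 FPKM (-6.56 ± 0.46). Bmp4 and Bmp6 were not called (adjusted p = 0.178 and 0.637), with 0.00137 without cultured library 2 for Bmp4 and 0.0266 without cultured library 3 for Bmp6.

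Potassium channel subunits known from pericytes were among the largest rises. Abcc9 and Kcnj8, the 2 parts of a KATP channel, were listed at 0 in all cultures, and in vivo Abcc9 stood at 1268, 1311 and 1614 FPKM and Kcnj8 at 978, 1080.1 and 1204 (adjusted p = 1.73e-06 and 1.73e-06). Rgs5, a regulator of G proteins used as a pericyte marker, was at 107, 103 and 117 FPKM in vivo and listed at 0 in culture. The pericyte genes Cspg4, Des and Pdgfrb rose as well (adjusted p = 0.00109, 0.000242 and 0.000321): in vivo Cspg4 stood at 2.94, 2.92 and 1.72 FPKM, Des at 4.84, 4.71 and 3.68 and Pdgfrb at 10.9, 14.4 and 16.8. Of 12 tested smooth muscle and pericyte markers 9 were called higher and none lower, and their part in these rises was not tested. Of the 14 in the files 6 were listed at 0 in all cultures, and such genes could only be called higher. Rgs4, a related regulator, was listed at 0 in culture and stood at 2139, 2276 and 3418 FPKM in vivo. Cd300lg, a mucin-like receptor of capillaries, rose from 0, 2.30 and 0 to 1717, 1636 and 1779.6 FPKM (10.17 ± 0.48).

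The largest falls included skin barrier genes and an imprinted gene. Sprr2b stood at 382, 174 and 55.1 FPKM in culture and was listed at 0 in all in vivo libraries. Sprr2b and Sprr1a code for small proline-rich proteins of the skin barrier, a family of close copies whose values are uncertain, and Sprr1a was likewise listed at 0 in all in vivo libraries, against 69.9, 244 and 27.9 FPKM in culture and 875, 1101 and 1089.6 in the second culture series. Olfm2 fell from 528, 194 and 101 to 0, 1.55 and 0.93 FPKM (-7.01 ± 0.66) and the collagen-processing enhancer Pcolce2 from 290.4, 64.2 and 349.5 to 0, 0.86 and 0 (-7.26 ± 0.68). Plagl1 stood at 37.5, 534 and 2279.8 FPKM in culture and at 1.71, 1.57 and 1.88 FPKM in vivo. This imprinted growth suppressor differed by -7.05 ± 1.40 (adjusted p = 0.00731), and its cultured libraries lay far apart, with library 3 highest. Ptprz1, a receptor phosphatase, was listed at 0 in vivo and at 1.70, 195 and 530.0 FPKM in culture (adjusted p = 0.0374), which became 0.0773 to 0.106 without cultured library 2 or 3 or without any 1 in vivo library.

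The clock genes Per1 and Per2 rose by 3.20 ± 0.18 and 2.27 ± 0.34, with Per1 at 22.4, 20.5 and 19.5 FPKM in culture and 251, 191 and 164 in vivo. Of 20 clock genes 12 rose and 3 fell (median 0.84). The rises numbered 6 without in vivo library 2 and 7 without in vivo library 3. The falls numbered 1 without in vivo library 2. Among 16 heat shock genes 5 rose and 5 fell, against 24.3% and 30.1% over all tested genes. Hspb1 stood at 11.9, 6.13 and 2.89 FPKM in culture and at 546, 549 and 661 FPKM in vivo, so that this small chaperone differed by 6.36 ± 0.42. The near-identical genes Hspa1a and Hspa1b rose by 3.92 ± 0.29 and 3.35 ± 0.31, values which can share reads, and the chaperonin Hspe1 fell by 1.52 ± 0.27 on the log2 scale.

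The most abundant transcripts changed rank between the settings. In vivo these were Fabp4, Sepp1, B2m, Tmsb4x, Ctsl, Sparc, Fos, Itm2b, Tfpi and Aqp1, and in culture Tmsb4x, Vim, Sparc, Eef1a1, S100a6, Ctla2a, Actb, Mir682, Fth1 and Rplp1. Mir682 is a microRNA entry, a class left out of the largest rises and falls, and its value in polyA libraries is uncertain. Tmsb4x, which binds free actin, and Sparc, a matrix protein, were in both sets and were not called (adjusted p = 0.729 and 0.875). Aqp1 stood at 476, 299.6 and 1110.0 FPKM in culture and at 7320.4, 5717 and 5572 FPKM in vivo. Aqp1, the water channel of endothelium, rose by 3.51 ± 0.50. Ctsl stood at 277, 868 and 298 FPKM in culture and at 7310.4, 8227 and 9957 FPKM in vivo, and this lysosomal protease rose by 4.34 ± 0.49.

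Whether a change was particular to endothelium was asked of bone marrow stroma in the same 2 settings, in a fit of 12 libraries with an interaction term. A single replicate of the cultured stroma stood apart from the others, and this fit was not repeated with a library left out. The change differed between the cell types for 5000 of 14904 genes (33.5%), with endothelium higher in 2450 (16.4%) and lower in 2550 (17.1%). Fos was also higher in stroma in vivo. It stood at 5.87 ± 1.69 FPKM in cultured stroma and 9142 ± 1333 in vivo (SD, n = 3), and its change in endothelium differed by -0.45 ± 0.36 (adjusted p = 0.368). Of the 36 genes of that list 11 had a higher change in endothelium and 7 a lower one. H2-K1 and Cdkn2a did not pass the test of a difference either (0.14 ± 0.39 and -0.35 ± 0.77, adjusted p = 0.822 and 0.765). Of the 40 cell cycle genes 25 changed to a lower side in endothelium than in stroma and 3 to a higher, against the shares of 17.1% and 16.4%, and Cdk1 differed by -1.72 ± 0.36 (adjusted p = 0.00423). Of 18 fatty acid uptake genes 12 changed to the higher side in endothelium and none to the lower. Of 33 oxidative phosphorylation genes 2 differed, both lower in endothelium.

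The genes with the largest differences between the cell types are given by direction, on values that depend on the pseudocount where a group is listed at 0. Toward endothelium in vivo these were Lipg (12.98 ± 0.45), Cfd (12.24 ± 2.31), Ubd (10.94 ± 1.02), Fabp4 (10.42 ± 2.27) and Col15a1 (10.19 ± 2.11). Col15a1 stood at 931 ± 799 FPKM in cultured stroma and 29.6 ± 6.33 in vivo (SD, n = 3), while in endothelium it rose. Cfd, an adipocyte protease of the complement system, was listed at 0 in cultured endothelium and stood at 312, 232 and 231 FPKM in vivo. Toward the other side were Plagl1 (-10.49 ± 1.56), Bves (-10.48 ± 0.33), Ptprz1 (-10.18 ± 2.09), Scin (-10.10 ± 0.79) and Pcolce2 (-9.89 ± 2.02). Their adjusted p ran from 3.53e-08 for Bves to 0.00541 for Fabp4. Bves, a membrane protein of muscle and epithelium, stood at 32.6, 34.7 and 62.2 FPKM in cultured endothelium, 0 in vivo, 0 in all cultured stroma and 32.9 ± 3.65 in stroma in vivo (SD, n = 3). Stab2, by contrast, stayed under 1 FPKM in the mean of both stromal groups, and differed by 10.19 ± 0.40 (adjusted p = 6.14e-08).

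**Figure D5:**
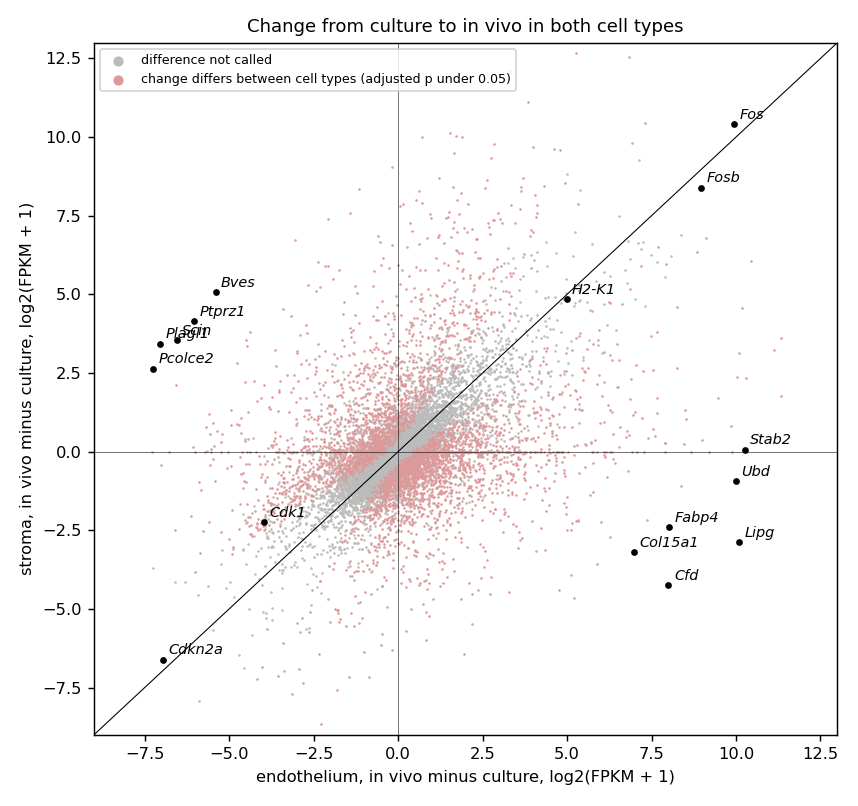
Each point is 1 of 13472 genes, with the log2(FPKM + 1) difference in vivo minus culture in endothelium (x axis) and in stroma (y axis), red where the changes differ between the cell types (4228 genes at adjusted p under 0.05) and grey elsewhere, and the line marks equal change. Fos, Fosb, H2-K1 and Cdkn2a lie near the line, Lipg, Cfd and Fabp4 below it and Bves, Plagl1 and Pcolce2 above it.

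The second culture series shows how far 2 sets of cultures of these cells lay apart, since its libraries were labelled separately and share none with the first. Of the 15 largest rises, which were chosen on the first cultures, the mean of the second series lay between the culture and in vivo means for 4 and on the far side of the culture mean for 6, and for 5 both culture means were 0. For the 15 largest falls 12 lay between and 3 on the far side. Cd36, Darc, Abcc9 and Fcgr2b were listed at 0 in all 3 libraries of the second series, and Stab2 was at 0.42, 0.23 and 0.62 FPKM. Gpihbp1 was higher there than in the first cultures, at 261, 198 and 239 FPKM, and Gja5 stood at 312, 276 and 282 FPKM, under every library of the first cultures. Sterol synthesis genes lay beyond the first cultures, away from the in vivo level, for 23 of 29, such as Sqle at 432, 450.4 and 453 FPKM. Cells of the second series were cultures too, and the in vivo libraries are the same in both readings, so these values are given side by side and not tested.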

How the data were processed

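PolyA RNA of C57BL/6J bone marrow cells was extracted with Trizol and sequenced on paired ends of 51 bases, per the labels' protocols. The authors deposited 1 table of FPKM per library, made with TopHat and Cufflinks on mm9, per the submitters' processing notes, whose versions, annotation and strand setting are not given in the sources used here, so overlapping and antisense genes cannot be told apart. Totals differed between libraries, a further scaling is not stated, and low values did not fall on steps of whole reads, so that depth is unknown.

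From these FPKM values, log2(FPKM + 1) was fitted with limma 3.58.1 (R 4.3.3) on the 6 libraries, with a mean-dependent prior, for genes of at least 1 FPKM in 3 or more libraries. Adjusted p-values are Benjamini-Hochberg over all tested genes, called under 0.05, and 2-sided. The comparison with stroma used 12 libraries and an interaction term. Samples were grouped by title. The members and the 46 gene lists (1099 of 1106 entries found) were chosen with earlier results of these data known. The text names Akt1, the 15 largest changes in each direction among non-overlapping genes of at least 20 FPKM, up to 5 called members per list and direction, the 10 most abundant per group and the 5 largest interactions per direction. Further list members were named after their values were seen. The scripts were tested on simulated data. Alternatives were another pseudocount and filter, trimmed-mean and quantile scaling, more libraries, group weights, a 2-fold threshold, a replicate block and leaving out each library. Promoter windows came from RefSeq (GRCm38.p6), another build than the FPKM, and were matched by symbol. A few list members are counted in their lists and not reported here by name.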

Additional observations from a re-analysis of the deposited data

Results flagged for a closer look

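The change between culture and in vivo differed between endothelium and stroma, by an interaction term in limma over 12 libraries, for 10 genes chosen as the largest in each direction. The change in endothelium minus that in stroma, on log2(FPKM + 1), was 12.98 for Lipg, 12.24 for Cfd, 10.94 for Ubd, 10.42 for Fabp4 and 10.19 for Col15a1. It was -10.49 for Plagl1, -10.48 for Bves, -10.18 for Ptprz1, -10.10 for Scin and -9.89 for Pcolce2. Among other genes given with this test, it was 10.19 for Stab2 and -1.72 for Cdk1. Where a group is listed at 0, as for Lipg, Cfd and Bves in cultured or in vivo cells, the value depends on the pseudocount. Ubd, a ubiquitin-like protein induced by cytokines, stood at 2.02, 2.16 and 0 FPKM in cultured endothelium and at 1669.7, 1829 and 3354 FPKM in vivo. Scin, an actin-severing protein, stood at 54.6, 120.4 and 214 FPKM in cultured endothelium and at 0.75, 0 and 0 FPKM in vivo.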

How the results depend on the processing

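The number of called genes stayed between 5241 and 8023 when 1 library was left out (2405 to 3584 higher, 2782 to 4577 lower) and between 6496 and 9970 under the other scalings, filters, pseudocount, weights and larger fits. A test against a 2-fold change called 1880 genes, 1165 higher and 715 lower, which asks more of each gene by construction. Genes whose change differed from stroma numbered 4272 to 5450, in fits that all kept every library of the 4 groups. The difference of Cxcl12 ran from -0.81 to 1.01 when 1 library was left out, reversed without cultured library 2, and was -0.63 without both cultured libraries that carry Xist, a fit that leaves 1 cultured library, assumed to vary like the in vivo ones, and called 9598 genes. The cause was not tested. Whether replicate numbers pair the samples is not stated. The deviations of same-numbered libraries correlated at 0.03, -0.05 and -0.09 (number 1, 2 and 3) and those of differently numbered ones at -0.08 to 0.11. Such values cannot decide it, since paired samples need not share deviations across the 2 settings. The fit with a replicate block called 6061 genes, 2811 higher and 3250 lower, and 4639 for the difference from stroma. The spread between cultured libraries (median SD 0.33 against 0.11 in vivo) limits what the test can call, and depth is unknown.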

Other observations

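Guidance genes, which steer growing vessels and nerves, included 7 rises and 5 falls among 27 tested genes, against 24.3% and 30.1% over all tested genes. Their median of 0.55 turned to -0.02 without cultured library 2. Without in vivo library 1 the rises numbered 4, and without any 1 in vivo library the falls numbered 3. Slit2, a ligand of Robo receptors, fell from 50.6, 21.5 and 73.1 FPKM in culture to 0, 0 and 0.72 in vivo (-5.20 ± 0.49, adjusted p = 0.000536). Netrin-4 (Ntn4), a basement membrane protein that limits vessel sprouting, fell from 65.9, 47.6 and 217 to 9.08, 7.97 and 6.80 FPKM (-3.32 ± 0.55). Sema3a, a repulsive semaphorin, went the other way, from 4.30, 36.9 and 1.34 to 222, 306 and 351 FPKM (5.22 ± 0.99).

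Wnt pathway genes included 8 rises and 9 falls among 29, shares near the 24.3% and 30.1% over all tested genes. Dkk2, an antagonist of Wnt co-receptors, stood at 22.8, 114 and 387 FPKM in culture and 2.55, 3.48 and 3.97 in vivo (adjusted p = 0.00894). The secreted antagonist Sfrp2 stood at 20.1, 4.11 and 105 FPKM in culture and was listed at 0 in all in vivo libraries (adjusted p = 0.0125). The list's median of -0.13 turned to 0.05 with trimmed-mean scaling and to 0.10 without cultured library 1, and without in vivo library 2 or 3 the list had 4 rises and 5 falls.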
